A study of Mus musculus with 12 samples.

Results

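The cytosines described here were highly methylated in both fibroblast lines before doxycycline and had a low mean methylation level in the experimental line afterwards. They are the autosomal CpG cytosines listed in all 12 libraries with a level over 80% at day 0 in both lines, a control mean over days 5 to 20 of 80% or more and an experimental mean over the same days of 60% or less. Of 606488 autosomal cytosines listed in all 12 libraries, 142660 were over 80% at day 0 in both lines, 121980 of these also met the condition on the control line and are called eligible here, and 908 met the whole rule. The members were therefore 0.744% of the eligible cytosines. Because the rule used the difference between the lines, that difference is described at the members and not tested. The same rule with the lines exchanged, that is with the loss in the control line, found 2247 cytosines, which was 2.47 times the number of members.

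The data are reduced representation bisulfite sequencing (RRBS) libraries of immortalised mouse embryonic fibroblasts (iMEFs) grown in low glucose DMEM with FBS. The experimental line had the genotype R26M2rtTA/+;TetOcre;Sdhcfl/fl and the control line R26M2rtTA/+;TetOcre;Sdhcfl/wt, so both carried the reverse tetracycline transactivator, the tet-inducible Cre and at least one floxed allele of Sdhc, which encodes a membrane subunit of succinate dehydrogenase. Both lines received doxycycline at 1 microgram/mL and were sampled before it (day 0) and on days 5, 9, 12, 16 and 20 of treatment, with 1 library per line and day. The control line carried 1 floxed allele open to the same rearrangement and 1 wild-type copy. Each genotype was a single line, made from mid-gestation embryos and immortalised with SV40, so a difference between genotypes and a difference between these lines cannot be told apart. An SD over days 5 to 20 is the spread between time points of 1 line and not between independent cultures.

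Methylation of cytosine in CpG pairs is copied to the new DNA strand by the maintenance methyltransferase after replication, and both strands of a CpG therefore usually carry the same state. Methylation is lost when this copying fails over cell divisions or when TET dioxygenases oxidise the mark, a reaction that uses 2-oxoglutarate and oxygen. Succinate, the substrate of succinate dehydrogenase, is known to inhibit such dioxygenases when it accumulates, and SDH-deficient tumours are known for gains of methylation, whereas the members here lie in the direction of loss.

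The members were single CpG cytosines, and sequence from RefSeq (GRCm38.p6, the assembly of mm10) was at hand for the 7 that lay in the windows from 250 bases before to 50 bases after a gene start. They are shown for that reason, and some members outside these windows lay closer to a gene start than some of those shown. Each is given 5′ to 3′ on the plus strand, with the member CpG in capitals. The Aldh1b1 stretch is chr4:45798781-45798842, that of E330017L17Rik chr4:129906257-129906275, that of Gm20636 chr5:112375388-112375417, that of Gm36405 chr5:148809496-148809536, that of Myo5c chr9:75232040-75232063, that of Gm34061 chr14:99578221-99578282 and that of Rpl39l chr16:10170246-10170275.
Aldh1b1: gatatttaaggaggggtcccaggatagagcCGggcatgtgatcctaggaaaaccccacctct
E330017L17Rik: tctcaagtcatgttCGata
Gm20636: cggtttctgcaggcCGtcaacctcatgcac
Gm36405: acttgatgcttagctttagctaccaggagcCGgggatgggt
Myo5c: cgggggaagggagcCGtggcactc
Gm34061: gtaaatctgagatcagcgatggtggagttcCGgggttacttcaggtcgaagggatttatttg
Rpl39l: attcttttaactgcCGagcctgcagcagcg
In 3 of the 7, Aldh1b1, Gm36405 and Gm34061, the member CpG was the centre of a CCGG, the site at which RRBS libraries are commonly cut. CCGG reads the same on both strands, and 53.5% of the 31396 RefSeq windows of this length held at least one.

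The libraries listed between 932307 and 1716381 cytosines, with the fewest in control day 12 and, within the experimental line, in days 20 (1396072) and 9 (1417046). Read counts do not accompany the percentages, which leaves the depth of every value unknown, and no interval is given for a single cytosine. As a check of the cell type label, 3 of the 4 fibroblast gene promoters with at least 3 cytosines (Pdgfrb, Vim and Twist1) had a median level under 20%, whereas Col1a2 was at 88.4%. Krt18 was the only epithelial promoter that could be read, at 45.3%. Methylation does not measure expression, and the rearrangement of Sdhc itself cannot be checked in these values.

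At the members, the mean level in the experimental line was 92.2% before doxycycline and then 60.9%, 46.5%, 58.2%, 59.6% and 38.2% on days 5, 9, 12, 16 and 20. In the control line it was 97.7%, 87.5%, 88.6%, 96.8%, 91.7% and 87.9% in the same order. Over days 5 to 20 the means were thus 52.7% ± 9.91 (SD, n = 5 days) in the experimental line and 90.5% ± 3.88 (SD, n = 5 days) in the control line, and every experimental day lay below every control day, as the rule makes likely. The lowest 2 experimental means were those of days 9 and 20, the 2 experimental libraries with the fewest cytosines listed, and the highest control mean was that of day 12, the smallest library of all. The part of library size in these levels was not tested.

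**Figure D1:**
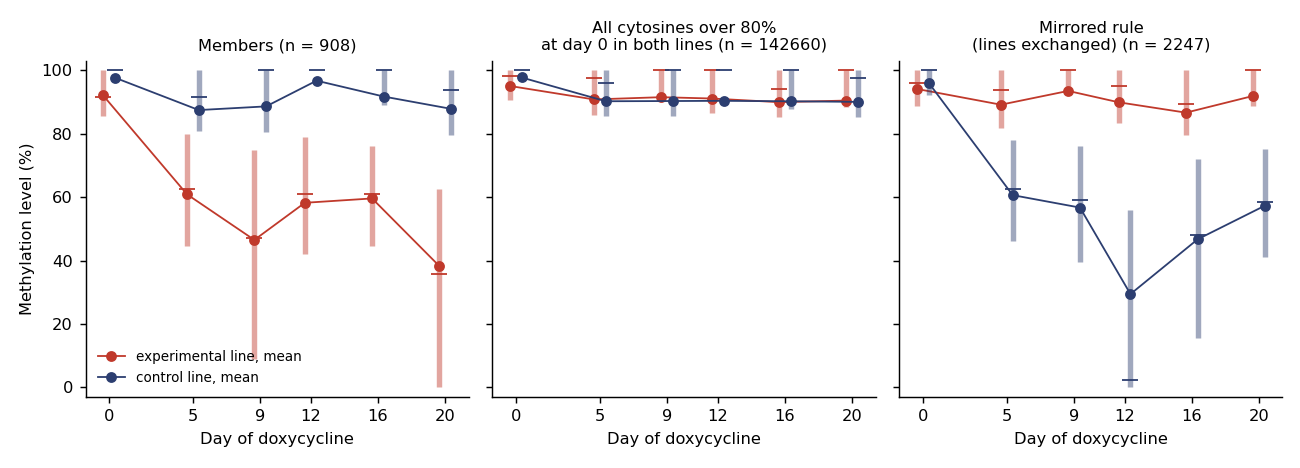
Methylation level (%) against day of doxycycline for the 908 members, for all 142660 cytosines over 80% at day 0 in both lines and for the 2247 cytosines of the mirrored rule. Points joined by lines are library means, short dashes are medians and thick bars run from the lower to the upper quartile over cytosines. The experimental members lie between 38.2% and 60.9% after day 0, and the large set lies near 90% in both lines on every day after day 0.

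The low experimental level of the members was not shared by highly methylated cytosines in general. Over the 142660 cytosines chosen by day 0 alone, the day 0 means were 95.1% in the experimental and 97.8% in the control line. The day 0 values chose these cytosines, so no change from day 0 is read from them. The experimental means of days 5 to 20 ran from 89.97% to 91.5% and the control means from 90.1% to 90.4%. Their averages of 90.8% ± 0.601 and 90.3% ± 0.125 (SD, n = 5 days each) differed by 0.53 percentage points, higher in the experimental line, and this was not past the threshold (two-sided exact permutation test, p = 0.103). At the mirrored cytosines the control line was lowest at day 12, with a mean of 29.4%, and between 46.7% and 60.6% on the other days after day 0.

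Individual members moved up and down between days rather than falling and staying low. Only 26 of 908 (2.86%) were at 60% or less on all 5 experimental days, 149 were so on 4 days, 395 on 3 days, 321 on 2 days and 17 on 1 day. A level over 80% returned on at least 1 experimental day after day 0 at 677 members (74.6%), and 304 were at 0% on one of these days and at 100% on another. The lowest value fell on day 20 at 428 members and on day 9 at 311, against 110 on day 5, 123 on day 12 and 81 on day 16, with ties counted on each day. The median SD over the 5 experimental days was 33.5 percentage points, compared with 13.0 over the control days at the same cytosines and 7.83 over the experimental days at eligible cytosines. At the mirrored cytosines it was 34.6 over the control days and 11.5 over the experimental days. Of these, 118 (5.25%) were at 60% or less on all 5 control days. The movement between days was therefore not particular to the experimental line. Complete separation of the lines after day 0 was the minority pattern. All 5 experimental values lay under all 5 control values at 155 members (17.1%), beside 1.23% of the 508351 cytosines with varying values. That share is given as a description, since the rule used these values, and it was 23.5% of the mirrored cytosines with the lines exchanged.

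**Figure D2:**
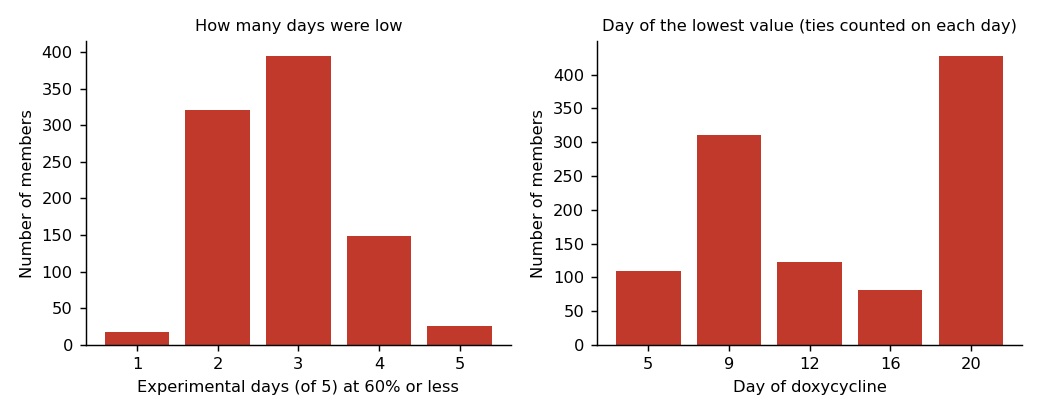
Number of members by how many of the 5 experimental days were at 60% or less (left) and by the day of the lowest experimental value (right). The tallest bars are 395 members with 3 low days and 428 members lowest on day 20.

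Many members sat close to the limit of the rule. The experimental mean was over 50% at 665 members (73.2%) and under 30% at 14, and 22 had a mean of exactly 60%. Among these last were chr14:98504507 and chr15:31273313, each at 0% on 2 of the experimental days and at 100% on the other 3. Just outside, chr13:99744621 had an experimental mean of 60.01% with values from 45.5% to 71.4%, and chr14:7992648 had one of 60% that exceeded the limit only by the rounding of the deposited values.

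The rule used the mean of the experimental values over days 5 to 20 and not the order of the days. A trend over these days was fitted at all 508351 varying cytosines with limma on M-values. The M-value is the log2 ratio of methylated to unmethylated fraction with an offset of 0.01. No cytosine was called falling (0%) or rising (0%) in the experimental line at an adjusted p under 0.05 (limma, Benjamini-Hochberg; 31021 cytosines had an unadjusted p under 0.05), and the lowest adjusted p at a member was 0.676. Without adjustment, 81 members (8.92%) fell with time, beside 4.68% of the eligible cytosines with varying values and 3.34% of all cytosines. Without adjustment, 32 (3.52%) rose, beside 2.69% and 2.77%. The median slope at the members was -0.09 on the M-value (log2) scale per day. Of their slopes 64.3% were negative. Over eligible and over all cytosines the median slope was flat up to rounding error. The sign of flat slopes there is set by rounding, so no share of negative slopes is compared. Day 20, the last day, was also the experimental library with the fewest cytosines listed, and 278 members were at 0% on it. The slopes use the same values whose mean the rule limits, so these shares are a description. The part of library size in the slopes was not tested. For the difference in slope between the lines there was again no call (limma, 21223 cytosines with an unadjusted p under 0.05). Without adjustment, 61 members (6.72%) had a lower experimental slope, beside 3.79% of eligible and 2.27% of all cytosines. A steady fall was rare: 22 members fell or stayed level at each step from day 5 to day 20 and 8 rose or stayed level. In the comparison of the lines used by the study, with 6 control and 5 experimental libraries, limma called 62 members (6.83%) lower in the experimental line, beside 0.279% of all cytosines. The rule used this contrast, so nothing is read from that count.

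To read the difference between the lines in libraries that had not chosen the cytosines, both libraries of 1 day were left out. The rule, with both day 0 conditions, was applied to the other 10 libraries, and the left-out day was read at the cytosines found. This check was added after the data were seen. Day 0 still chose the cytosines, so the check does not measure a change from day 0. With day 5 left out, 1256 cytosines were found, and at day 5 their mean level was 74.6% in the experimental line and 84.5% in the control line. With day 9 left out, the 1104 cytosines found were at 74.96% and 84.9% on that day. The 1221 cytosines found without day 12 were at 74.1% and 85.2% on day 12. These cytosines were lower in the experimental line on the unseen day too, but by far less than on the days that chose them. Without day 16, the 1257 cytosines found were at 72.3% and 84.9% on day 16, and without day 20 the 955 found were at 70.2% and 82.2% on day 20. On the 4 days used each time, the experimental means were between 51.4% and 52.0% and the control means between 90.6% and 91.7%. The difference on the left-out day, experimental minus control, averaged -11.1 percentage points ± 1.22 (SD, n = 5 days) and was below 0 on 5 of 5 days, whereas at the other eligible cytosines it averaged -0.433 ± 0.481. The exact two-sided sign-flip test over the 5 days gave p = 0.0625, the smallest value that 5 days allow, and the 5 sets of cytosines overlap. The days are also serial samples of 1 culture per line, and the other days of these cultures chose the cytosines. The 5 differences are therefore not independent, and nothing is read from this p-value. A level of 60% or less was found on the left-out experimental day at between 24.6% and 34.5% of the cytosines, and on the left-out control day at between 10.9% and 16.2%. The same exercise for the mirrored rule gave a difference of 17.6 ± 1.48 percentage points, with the control line lower on 5 of 5 days.

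**Figure D3:**
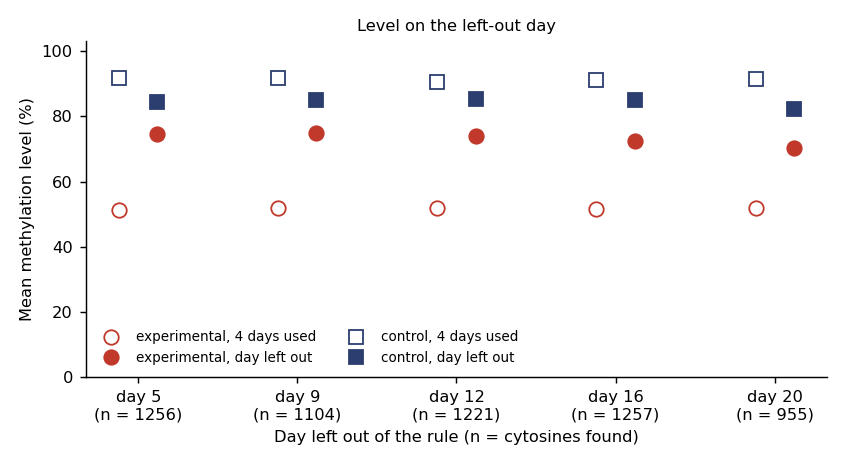
Mean methylation level (%) at cytosines found without 1 day, on the 4 days that chose them (open symbols) and on the day left out (filled symbols), for each left-out day. On the left-out day the experimental means lie between 70.2% and 74.96% and the control means between 82.2% and 85.2%, much closer together than on the days used.

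Most cytosines with the later pattern were not high in the experimental line before doxycycline. When that value was left out of the rule, 4376 cytosines listed in all 12 libraries met the other conditions, and their experimental day 0 level had a mean of 59.6% and a median of 60.7%. Of these, 908 (20.7%) were over 80% at day 0 and became members, while 2172 (49.6%) were already at 60% or less before doxycycline. Exchanging the lines gave 6908 cytosines, of which 2247 (32.5%) were over 80% at day 0 in the control line and 3254 (47.1%) were at 60% or less.

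The other cytosine of the same CpG, read from the opposite strand, was lower in the experimental line by about the same amount before and after doxycycline. It was listed in all libraries for 63 members, and 6 of these 63 partners were members themselves. At these 63 members, the median difference between the lines over days 5 to 20, control minus experimental, was 36.9 percentage points, and at their partners it was 14.8, with quartiles of 4.92 and 23.6. At partners of eligible cytosines the median was 0.314. At 192 partners of mirrored cytosines it was -24.2, with the control line lower. Of the 63 partners, 52 were lower in the experimental line and 25 (39.7%) were lower by 20 points or more, against 3.24% of the partners of eligible cytosines. This gap was already there at day 0. The mean of the partners was 74.7% at day 0 in the experimental line and 89.0% in the control line, a gap of 14.3 points, and over days 5 to 20 it ran from 66.1% to 72.0% and from 81.3% to 86.2%, a gap of 14.7 points. From day 0 to the mean of days 5 to 20 the partners fell by 5.34 points in the experimental line and by 4.94 points in the control line, while the 63 members themselves fell by 39.5 and 6.92 points.

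Cytosines near the members showed a smaller difference than the partners. Of the 908 members, 701 had a listed cytosine 2 to 100 bases away, and the median difference between the lines there was 5.62 percentage points, compared with -0.0524 around eligible cytosines. At 148 members (21.1%) these neighbours were lower in the experimental line by 20 points or more on average, beside 2.73% for eligible cytosines. At more than 100 and up to 1000 bases the median difference was 1.01 points around 547 members and -0.319 around eligible cytosines. With members left out of the neighbours, the mean level 2 to 100 bases from 688 members was 75.4% in the experimental line and 78.1% in the control line at day 0. On days 5, 9, 12, 16 and 20 it was 72.1%, 72.4%, 72.6%, 70.0% and 67.0% in the experimental line and 78.4%, 77.5%, 77.5%, 77.3% and 76.7% in the control line. The gap around the members was therefore 2.64 points before doxycycline and 6.66 points afterwards, and the experimental days did not overlap with the control days. The share of members with neighbours lower by 20 points or more was 19.8% (136 of 688) at day 0 and 18.5% (127) over days 5 to 20. The day 0 share rests on 1 library per line and the later share on means of 5 days. The shares are therefore not measured alike, and no change is read from them. Around eligible cytosines that were not members the gaps were -0.29 and -0.663 points, and these shares were 7.60% and 2.60%. Neighbours lie on the same or adjoining RRBS fragments as the members and share their libraries, so no test was made.

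**Figure D4:**
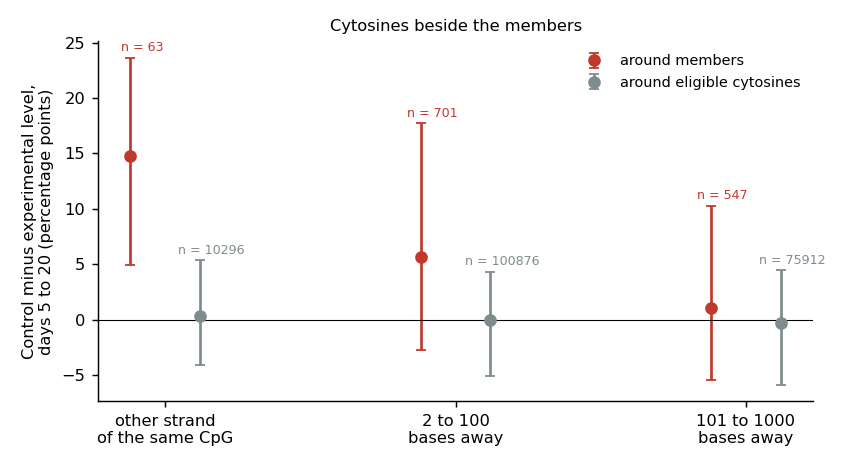
Control minus experimental level over days 5 to 20 (percentage points) at the other strand of the same CpG, 2 to 100 bases away and over 100 to 1000 bases away, as median (point) with lower and upper quartile (bar). Around members the medians are 14.8, 5.62 and 1.01, and around eligible cytosines they lie within 1 point of 0.

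Most members stood alone. With members up to 200 bases apart joined into runs, 830 of 908 (91.4%) had no other member in reach, although only 115 had no other listed cytosine within that distance, and there were 32 runs of 2 members, 2 of 3 and 2 of 4. The runs with the most members were in Sobp and Prdm6. Sobp encodes a nuclear zinc-finger protein of inner ear and brain development, and its run of 4 members lay at chr10:43021410-43021448, inside the gene. The run mean in the experimental line was 92.1% at day 0, then 60%, 62.5%, 81.3%, 55% and 0% on days 5, 9, 12, 16 and 20, while the control line was at 100%, 100%, 82.7%, 100%, 87.0% and 87.0%. All experimental days after day 0 were below all control days, with the largest gap on day 20. Within 500 bases of the middle of the run, 29 other listed cytosines were at 53.0% in the experimental and 78.1% in the control line at day 0, so that the surroundings differed between the lines before doxycycline, and their means over days 5 to 20 were 60.9% and 88.6%. Prdm6, a PR-domain regulator of transcription in smooth muscle, held 4 members at chr18:53473450-53473490. They were at 91.2%, 66.7%, 65.6%, 83.3%, 55% and 0% in the experimental line from day 0 to day 20 and at 100%, 95.3%, 100%, 100%, 100% and 98.1% in the control line. This run, too, was unmethylated in the day 20 library alone, and the 7 other listed cytosines within 500 bases of its middle were at 39.5% and 75.8% at day 0 and averaged 53.5% and 76.4% over days 5 to 20.

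Foxl1, a forkhead transcription factor of the mesenchyme under the gut epithelium, and a stretch between genes on chromosome 8 held the runs of 3 members. The Foxl1 run at chr8:121129129-121129168 was at 100% at day 0, at 0% on days 5 and 9, at 66.7% on day 12, at 38.1% on day 16 and again at 100% on day 20 in the experimental line. The control line was at 76.2% on day 5 and at 100% on the other 5 days. In this run the low values came early, unlike in Sobp and Prdm6, and on day 20 the lines did not differ. The other 2 members of Foxl1, at chr8:121128805-121128838, had another order, with 92.9% at day 0 and 66.7%, 100%, 29.2%, 73.8% and 19.2% afterwards, against control values from 94.4% to 100%. Within 500 bases of the middle of the first run, 11 other listed cytosines were at 60.5% in the experimental and 60.6% in the control line at day 0. Over days 5 to 20 they averaged 49.97% and 85.5%. The surrounding means were thus close at day 0 and apart afterwards, and the larger change was a rise in the control line. The intergenic run at chr8:112332300-112332332 was at 91.6%, 91.7%, 30.4%, 94.6%, 45.4% and 1.59% in the experimental line and at 100%, 72.0%, 95.7%, 100%, 80.2% and 74.5% in the control line. On days 5 and 12 it was high in the experimental line, so the groups overlapped. Its 5 listed neighbours within the same reach were at 81.1% in the experimental and 53.3% in the control line at day 0 and averaged 77.5% and 84.0% afterwards. Smaller runs of 2 members lay in Tafa1, Cdh13 and E330017L17Rik, and between genes, where the nearest start sites were those of Erc2, Col6a4 and 9330182O14Rik. The Tafa1 pair at chr6:96623002-96623050 fell to 0% on days 9 and 20 and was at 70.0%, 46.7% and 62.5% on days 5, 12 and 16, with control values from 70.0% to 100% after day 0. The pair at chr15:40130814-40130827 was at 0% on day 5 and at 100% on day 20.

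**Figure D5:**
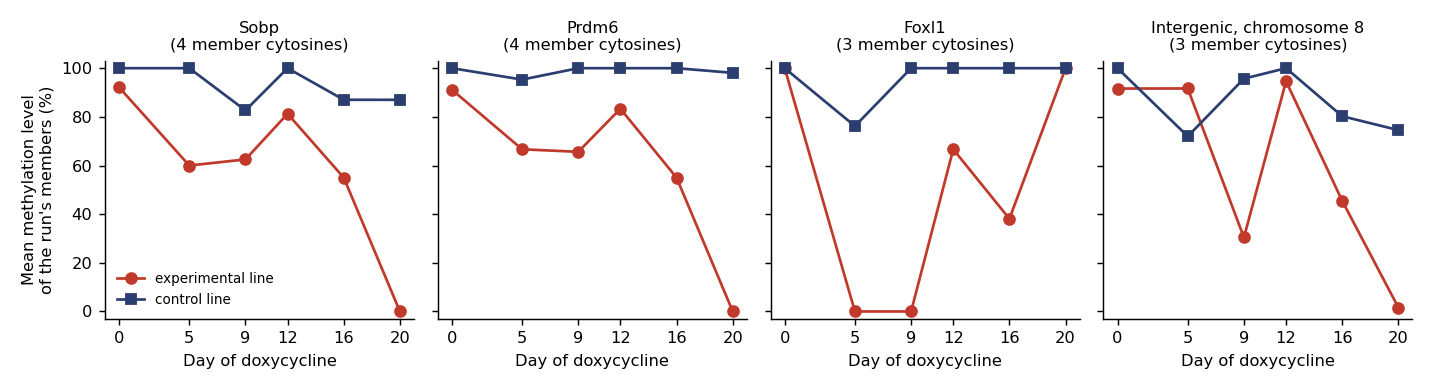
Mean methylation level (%) of the member cytosines in the 4 runs with the most members, by day of doxycycline, in the experimental line (circles) and the control line (squares). Sobp, Prdm6 and the intergenic run are at or near 0% on day 20, and Foxl1 is at 0% on days 5 and 9 and at 100% on day 20.

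Of the genes with the most members, Foxl1, Sobp, Prdm6, Tafa1 and Cdh13 held such runs, while Myo5b, Wnk2, Shisal1, Ptprs and Agap3 held none. Of 16123 genes with an eligible cytosine in the body or promoter, 599 held a member, and 546 of these held 1 member CpG and 47 held 2. Foxl1 and Sobp each held 5 member CpGs, Cdh13 and Prdm6 held 4, and Tafa1 and Myo5b held 3. In Cdh13, which encodes T-cadherin, a cadherin anchored to the membrane by a lipid, 4 cytosines were members, with experimental means of 97.2% at day 0 and 59.2%, 27.5%, 32.4%, 48.1% and 74.3% afterwards. The control values there were 91.8%, 65.1%, 81.8%, 100%, 100% and 96.7%. In Tafa1, a secreted chemokine-like protein of the nervous system, 3 of 14 eligible cytosines were members, with an experimental mean of 43.1% and a control mean of 90.8% over days 5 to 20. The 3 Myo5b members, in the gene of a vesicle-transporting myosin, averaged 46.8% and 91.5%. Among genes with 2 member CpGs the lowest experimental means were in Wnk2 (41.6%), a kinase of ion transport, Shisal1 (42.6%), Ptprs (42.8%), a receptor tyrosine phosphatase, and Agap3 (44.2%), an Arf GTPase-activating protein. Their control means were between 87.4% and 96.4%. Apart from Foxl1, in which 5 of 6 eligible cytosines were members, the members were a minority of the eligible cytosines of these genes.

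Among the members whose groups did not overlap and that had another member on the other strand or within 100 bases, 12 in all, the largest difference was at chr14:27602384, for which the nearest start site was that of Erc2, an active zone gene. It was at 91.2% at day 0 and then at 53.5%, 5.00%, 51.9%, 52.4% and 0% in the experimental line, against 100%, 92.3%, 97.0%, 100%, 100% and 61.8% in the control line, and was at 60% or less on all 5 experimental days. In Tafa1, chr6:96623002 had means of 35.7% and 90.6%. Prdm6 gave chr18:53473482 (49.1% and 98.5%) and chr18:53473487 (55.9% and 100%), and Sobp gave chr10:43021410 (50.9% and 99.6%) and chr10:43021420 (48.4% and 91.7%). Cacna1c, the pore subunit of an L-type calcium channel, held chr6:118813779, which was at 100% at day 0 and at 10.0%, 52.6%, 75%, 72.7% and 24.0% afterwards, with control values between 81.1% and 100%. Both strands of 1 CpG in Kcnu1, a potassium channel gene of sperm, were among the 12: chr8:25910144 averaged 51.9% and 95.2%, and chr8:25910145 averaged 45.4% and 91.5%. On day 20 these strands read 10.0% and 74.1% in the experimental line. The last of the 10 largest was chr7:131183708 in Cdcp3, at 45.9% and 92.6%.

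Larger differences were found at members without a second member nearby. The largest of all was at chr5:147582518 in Flt1, which encodes a receptor for vascular endothelial growth factor. It was at 88.2% at day 0 and at 0%, 28.1%, 23.8%, 25% and 0% afterwards in the experimental line, and at 100%, 82.4%, 100%, 100%, 100% and 94.4% in the control line. Every day after induction was low there, and the experimental mean was 15.4% ± 14.1 against 95.4% ± 7.66 (SD, n = 5 days). The Flt1 cytosine was 1 of the 26 members at 60% or less on all 5 experimental days. Among the 26, chosen here after their values were seen, the least spread was at chr4:135144492 in Runx3, a transcription factor of T cell and neuronal development. It was at 82.8% at day 0 and at 52.8%, 55.2%, 52.0%, 55.6% and 49.2% afterwards, with control values of 100%, 82.4%, 73.3%, 100%, 100% and 100%. Such a level near the middle of the scale on every day was the exception. In Bmp7, a secreted ligand of the TGF-beta family, chr2:172896559 was at 100% at day 0, between 37.5% and 57.9% on all later experimental days and between 75% and 100% on all control days.

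Members in promoters, taken from 1500 bases upstream to 500 bases downstream of a start site, numbered 44 of 908 (4.85%), beside 3.98% of the eligible cytosines. Gene bodies outside promoters held 552 members (60.8%, beside 70.3%) and 312 (34.4%, beside 25.7%) lay outside both. The mirrored cytosines had similar shares, with 5.70% in promoters, 60.6% in gene bodies outside promoters and 33.7% outside both. Start sites were known for part of the genes only, and exons, introns and UTRs were not analysed here. Over the 42 genes with a member in the promoter, 38 had at least 3 listed promoter cytosines, members included. The mean of those promoters was lower in the experimental line over days 5 to 20 at 29 and by 20 points or more at 5, with a median difference of 6.71 points, so that 1 low member rarely marked a low promoter. The 5 promoters, named after their values were seen, were those of Lrrtm2, Sox2, Gm5122, Arhgef39 and Gm33326. At Sox2, a pluripotency and neural transcription factor, the promoter mean was 22.9% and 52.2% in the experimental and control lines over days 5 to 20 and had been 20.8% and 54.8% at day 0. The Sox2 difference was thus present before doxycycline. The Lrrtm2 promoter, of a synaptic adhesion protein, was at 53.5% and 86.4% over days 5 to 20 and at 65.4% and 59.5% at day 0, with the lines in the other order before induction. Here, too, the larger change was a rise in the control line.

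Promoters with 2 member CpGs each were those of E330017L17Rik, Cldn5 and Rrp9. In E330017L17Rik they were at 96.7% at day 0 and at 100%, 100%, 0%, 38.9% and 0% afterwards, against control values of 100%, 100%, 100%, 100%, 92.0% and 78.6%. In Cldn5, a tight junction gene of endothelium, they were at 91.2%, 63.2%, 78.6%, 81.4%, 22.2% and 0%, against 100%, 75.7%, 100%, 100%, 98.1% and 76.9%. In Rrp9, which encodes a component of the U3 small nucleolar ribonucleoprotein, they were at 88.3%, 63.0%, 50%, 62.5%, 81.3% and 0%, against 100%, 82.4%, 100%, 64.2%, 100% and 73.3%. All of these promoters shared a value of 0% on day 20. The Cldn5 promoter as a whole averaged 53.2% and 64.4%, and that of Rrp9 16.8% and 30.2%. Among promoters with 1 member, the lowest experimental mean was at the Aldh1b1 cytosine shown above, in the promoter of a mitochondrial aldehyde dehydrogenase. It was at 100% at day 0 and then at 0%, 8.57%, 12.5%, 26.9% and 57.6% in the experimental line, and in the control line it was at 100% on every day but day 12, when it was at 0%. The whole Aldh1b1 promoter, with 28 cytosines, was at 23.3% in the experimental and 17.9% in the control line, so this member was not typical of it. Other promoter members with low experimental means were in Gm33066 (33.0%), Lrrtm2 (33.1%), Gm30110 (38.9%), Eci2 (39.5%), an isomerase of fatty acid oxidation, Lyl1 (40.6%), a blood cell transcription factor, and Arhgef39 (42.7%). Their control means were between 85.2% and 100%.

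Of the other sequences shown above, the Gm20636 cytosine was at 0% on days 9 and 20 and between 81.8% and 100% on the other experimental days. The Myo5c cytosine, in the promoter of another transport myosin, was at 100% on day 9 and at 0% on day 20. Rpl39l, a ribosomal protein gene, was at 57.1%, 100%, 50%, 33.3% and 50% from day 5 to day 20. The Gm34061 cytosine was lowest on day 9 at 35.3% and back at 100% on day 20, and that of Gm36405 was lowest on day 20 at 3.45%. No day was low in all 7.

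Of the gene lists read, those of DNA methylation, of the TCA cycle and of fibroblast matrix held no member. Of 15 genes of DNA methylation (writers, erasers and readers) with eligible cytosines, 0 held a member among 186 cytosines, of 18 genes of the TCA cycle and succinate dehydrogenase 0 did among 92, and of 36 fibroblast matrix and mesenchymal genes 0 did among 575. Over all genes with an eligible cytosine the share with a member was 3.72%. In lists of this size a count of 0 is therefore not read as a trait of these genes. Developmental transcription factors held 14 members among 812 eligible cytosines (1.72%, beside 0.744% overall), in 12 of 42 genes. Sox5, a cartilage and neural transcription factor, and Runx3 had 2 each. The Sox5 members averaged 27.4%, 64.5%, 88.1%, 62.0% and 30.4% on days 5, 9, 12, 16 and 20 in the experimental line, against 71.3% to 100% in the control line after day 0. Pax9 and Gata3, regulators of tooth and thymus and of T cell development, held 1 each, with experimental means of 46.7% and 46.8% and control means of 83.2% and 82.8%. The Pax9 cytosine was at 15.8% on control day 9, below most experimental values, so its groups overlapped.

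Genes of neuronal adhesion and ion channels held 11 members among 601 eligible cytosines (1.83%), in 7 of 50 genes. Cacna1c had 3 member cytosines, and Shank2, a scaffold of excitatory synapses, and Cacna1d, another L-type calcium channel gene, had 2 each. The Cacna1c members averaged 45.3% and 87.8%, those of Shank2 47.3% and 88.7%, and those of Cacna1d 59.1% and 90.2%. In Cacna1d the days did not order the values, with 100% on day 9 and 0% on day 12. Kcnq1, a cardiac potassium channel gene, held 1 member at 42.7% and 83.8%. Wnt genes held 3 members among 485 eligible cytosines (0.619%), in 3 of 38 genes, a share near that of all eligible cytosines. The cytosine in Wnt6, a Wnt ligand, was at 88.2% at day 0 and at 58.8%, 50%, 46.2%, 43.2% and 9.09% afterwards, with control values of 100%, 65.5%, 83.1%, 100%, 100% and 95.3%, and it was among the 22 members that fell at each step. In Lef1, the nuclear partner of beta-catenin, the member was at 0% on days 9 and 16 and at 100% on day 12. The Wnt5b member had a mean of exactly 60%, with 0% on day 20 and 100% on days 9 and 16. Members, gene lists and runs share libraries, and none of these shares was tested.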

How the data were processed

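RRBS was performed on 12 libraries, 1 per line and day. Per the labels and the study's methods, the authors mapped the paired reads with Bismark (mm10) and deposited a percent value per cytosine, the share of its reads called methylated; versions are not given in the sources used here. The study's own later filters were not applied to these values. No counts accompany them, so depth and counting intervals are unknown, no coverage minimum was set, and limma replaced the count model planned for the case of counts.

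The strands of a CpG were counted separately. Members were found by the stated rule. Lines were compared with limma on M-values (offset 0.01), as were slopes per day in 1 fit with line, day and their interaction. Adjustment was by Benjamini-Hochberg with a threshold of 0.05. The p-values measure the spread between libraries of 2 cultures, which may be technical. Library means were compared with two-sided exact permutation tests. The fits were tested on simulated data. All 70377 listed cytosines inside RefSeq promoter windows (GRCm38.p6) lay on a CG. Start sites were those of 25748 genes of 47042 autosomal genes; on the chromosome without windows, 528 start sites came from gene ends, with the strand by symbol from an annotation of another build. Gene positions came from RefSeq.

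Named are the 10 genes with the most member CpGs (ties by lower experimental mean), the 10 members with the largest difference among those without overlap and with a member partner or a member within 100 bases, the 10 runs with the most members, the 10 promoters with the most members and at most 4 genes a list. The members, lists and rules were chosen with earlier results of these data known. Alternatives were other thresholds, scales and offsets, libraries paired by day and rules without 1 library. Software was R 4.3.3, limma 3.58.1, Python 3.11.15, pandas 2.3.3, numpy 2.4.6, scipy 1.17.1 and matplotlib 3.10.9.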

Additional observations from a re-analysis of the deposited data

Results flagged for a closer look

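Of 28 groups of 5 days (library means of each set and the 10 named runs in each line) in which values varied, 1 held a value set apart from the other 4 by more than 0.71 of the group's range. In the Foxl1 run, the control library of day 5 had a mean of 76.2%, while the other 4 control libraries after day 0 were all at 100%. Chance alone flags about 1 in 20 such groups.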

How the results depend on the processing

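The number of members, 908, depended on the limits of the rule. It was 450 with day 0 over 90% in both lines, 243 with an experimental mean of 50% or less, 473 with a control mean of 90% or more and 155 with all 5 experimental values under all 5 control values. With medians in place of means it was 1145, of which 549 were among the 908, and with the strands of a CpG averaged it was 860. With single libraries omitted the number lay between 942 and 4402. It was 4402 without experimental day 0, 1489 without control day 0 and 1441 without control day 12. Each of these also admits cytosines that the omitted library did not list. The first 2 drop a condition of the rule and keep all 908, while the last changes the control mean and keeps 784 of the 908. Without experimental days 9 and 20, chosen after seeing the data, it was 996, of which 439 were among the 908. The line comparison called 3124 cytosines over all sites, 5954 on beta values, 5275 with an offset of 0.05, and between 2240 and 3741 with each library left out. Of the 62 members called there, between 30 and 61 were called with each library left out, with 30 without control day 0, 35 without experimental day 12, 37 without control day 16 and 41 without control day 12. The slope and the difference in slope gave 0 calls under every alternative run with limma, with 24832 to 46575 and 19844 to 34061 cytosines at an unadjusted p under 0.05. The difference in the mean of all high cytosines lay between 0.341 and 0.734 percentage points with each library left out and passed the threshold without experimental day 16 (0.734, exact permutation p = 0.0159). The held-out-day difference, itself added after seeing the data, lay between -11.4 and -10.8 with each day left out, and was -17.9 for cytosines with another found within 200 bases, an alternative chosen after seeing the data. The day numbers did not pair the libraries: deviations of same-day libraries correlated at 0.000669 to 0.00295. With days as a replicate block the difference in slope gave 0 calls (21848 without adjustment), and the mean of all high cytosines differed by 0.53 points (exact sign-flip p = 0.125). The depth behind single values is unknown, and 25.9% of member values on experimental days 5 to 20 and 58.4% on control days were 0% or 100%.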

Other observations

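Members were spread over all 19 autosomes. Their share of the eligible cytosines ran from 0.499% on chromosome 16 to 1.09% on chromosome 14, and chromosomes 6 (1.07%) and 7 (0.981%) were next. No listed cytosine within 500 bases was found at 9.91% of the members, compared with 6.46% of the eligible and 8.32% of the mirrored cytosines. The median number of listed cytosines in that reach was 4 for each of these sets. Of the 908 members, 301 had no experimental value of 0% or 100% after day 0, 22 had only such values, and 93 were at 100% on all 5 control days.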
